A study of Mus musculus with 60 samples.

Results

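Gene counts were compared between Ercc1-deficient mouse fibroblasts that were grown with the TGFb receptor inhibitor A83-01 and the same fibroblasts without an inhibitor. The members are 6 libraries chosen by their labels, 3 with A83-01 and 3 controls, of 60 in the series and of 24 in the inhibitor experiment. The cells are tail tip fibroblasts (D/KO cells) that carry 1 truncated and 1 deleted allele of Ercc1, Ercc1(d/-), a gene of nucleotide excision and crosslink repair. The cells came from 4-week-old female tissue, with the number of donors not given in the sources used here. They were kept for few passages in serum-containing medium at low oxygen. Both groups thus share genotype, sex, age, medium and oxygen level, while the vehicle of the controls is not given. A83-01 was given at 1 µM for 3 days, and DMH-1, an inhibitor of the BMP type I receptor ALK2, was given to another 3 libraries of these cells at the same dose and time. The fit also held 3 libraries of these cells with Repsox and 3 with Vactosertib, each at 0.1 µM for 3 days, and 3 of untreated wild-type tail tip fibroblasts, Ercc1(+/+), of 14-week-old female tissue. No source used here states separate cultures or animals for the libraries, so the p-values measure the spread between these libraries, which may be technical.

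Ligands of the TGFb family bind pairs of type II and type I receptor kinases at the cell surface. The type I receptors ALK5 (Tgfbr1), ALK4 (Acvr1b) and ALK7 (Acvr1c), for TGFb, activins and nodal, pass the signal to SMAD2 and SMAD3, and it is these 3 kinases that A83-01 is known to block. The BMP type I receptors, ALK2 (Acvr1) among them, use SMAD1, SMAD5 and SMAD9 instead. In fibroblasts the TGFb branch is best known for raising collagens, matrix-modifying enzymes and contractile genes.

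The 6 libraries held from 17102639 to 24145551 counts. The values below are CPM, counts scaled to a common library total after TMM normalization, which corrects for differences in RNA composition, and fold changes are on the log2 scale with their standard errors. The 10 most abundant genes took 13.6% to 14.8% of the counts in control libraries and 9.10% to 9.34% with A83-01, and mitochondrially encoded genes took 0.511% to 0.909% and 1.10% to 1.29%. Ercc1 (GRCm39, chr7:19078703-19090449, plus strand) was counted at 21.6, 21.4 and 22.1 CPM in the control libraries and 18.6, 13.8 and 14.8 CPM with A83-01, and its exons overlap those of Polr1g on the other strand, so some reads could belong to either. Of 12 fibroblast markers, all were counted in both groups. Their summed level was 67140 to 71690 CPM in control libraries and 37120 to 39360 CPM with A83-01, and most of it is Col1a1 and Col1a2. Skeletal muscle markers were at 0, Myh3 apart. The 8 keratinocyte markers summed to 4.16 to 6.55 CPM in control libraries and 13.0 to 14.6 CPM with A83-01, with Krt14, Krt1 and Cdh1 at 0 in all 6 libraries. The 6 endothelial markers summed to 305 to 349 CPM in control libraries and 149.6 to 190.0 CPM with A83-01. One DMH-1 library, replicate 2, stood apart in interferon-stimulated genes (Isg15 at 5.597, 189.7 and 6.196 CPM in the 3 DMH-1 libraries), and counts against DMH-1 that it moved by more than 1.5 times are given with and without it.

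A83-01 changed a large share of the transcriptome. Of 15164 genes tested, 4941 (32.6%) were called against control (edgeR, quasi-likelihood test, p adjusted by Benjamini-Hochberg over all tested genes, threshold 0.05), 2486 higher (16.4%) and 2455 lower (16.2%). Of the called genes, 1062 rose and 961 fell by 1 or more on the log2 scale. The median log2 fold change over all tested genes was 0.0027. The 3 libraries of one group lay wholly above or below those of the other for 7463 genes (49.2%).

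Among called protein-coding genes with at least 5 CPM in the higher group and no overlap between groups, the deepest fall was that of Mmp13, the interstitial collagenase of the metalloproteinase family. It was counted at 158, 158 and 167 CPM in the control libraries and 0.646, 1.48 and 0.703 CPM with A83-01, a log2 fold change of -7.41 ± 0.26 (edgeR adjusted p = 3.35e-12). Next came the potassium channel subunit genes Kcne3 (-5.81) and Kcnj15 (-5.39) and the platelet chemokine Ppbp (-5.10). Spp1, which encodes the secreted matrix phosphoprotein osteopontin, fell from 948 ± 103 to 40.3 ± 2.05 CPM (SD, n = 3), a log2 fold change of -4.56 ± 0.20. The others of the 10 lowest were the adenylyl cyclase Adcy7, the pyrophosphate-producing Enpp1, Btnl9, the Notch ligand Dll4 and the sialic acid hydroxylase Cmah, at -4.29 to -3.96. Dll4 is known from endothelial cells, and of 6 endothelial markers 4 were lower as well and 1 higher, against 16.2% and 16.4% of all genes. Of the 4, Emcn passed narrowly (-0.39 ± 0.15, edgeR adjusted p = 0.0481). Pecam1 fell from 102 ± 2.17 to 44.8 ± 8.88 CPM, Cdh5 from 139 ± 22.5 to 38.4 ± 11.1 CPM and Kdr from 24.6 ± 3.20 to 6.93 ± 1.43 CPM, while Tek rose from 17.1 ± 1.51 to 36.4 ± 0.134 CPM (SD, n = 3). The summed level of the 6 markers was 305 to 349 CPM in control libraries and 149.6 to 190.0 CPM with A83-01, and its part in the falls was not tested. In such bulk libraries, fewer cells of a type and less RNA per cell cannot be told apart.

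The 10 largest rises by the same rule included genes barely counted in control cells, which passed the limit of 5 CPM through the A83-01 group alone. The heparan sulfate proteoglycan Gpc3 was at 0.402, 0.256 and 0.499 CPM in the control libraries and 19.1, 18.9 and 16.7 CPM with A83-01, a log2 fold change of 5.56 ± 0.22 (edgeR adjusted p = 1.37e-11). The lack of overlap between the groups is part of the rule and not a further result. Sfrp2, a secreted Wnt modulator, was at 21.99, 25.6 and 27.8 CPM in the control libraries and 587, 569.7 and 587 CPM with A83-01 (4.53 ± 0.13). Apoe, the lipid carrier apolipoprotein E, was at 3.49, 4.62 and 4.49 CPM in the control libraries and 148, 129 and 123 CPM with A83-01 (4.99 ± 0.27). Wdr86, Gdpd2, the calcium sensor Ncald, Ptprq, the small GTPase Rab3b, the plakin Ppl and the collagen chain Col6a5 rose by 4.32 to 5.66 on the log2 scale. The rises with the smallest p-values were those of Pamr1, Gpnmb, Sfrp2, Islr, the Wnt agonist Rspo2, the neuropeptide receptor Adcyap1r1, the transcription factor Osr2 and the phospholipid transfer protein Pltp, with log2 fold changes of 2.44 to 4.53. Pamr1 alone went from 36.6, 45.8 and 44.9 CPM to 749, 755 and 721 CPM. Those of the falls were Sertad4, the amino acid transaminase Bcat1, Mmp13, the proteoglycan Aspn, Bhlhe40, the interleukin 4 receptor Il4ra, Fam20a and C1qtnf6.

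**Figure D1:**
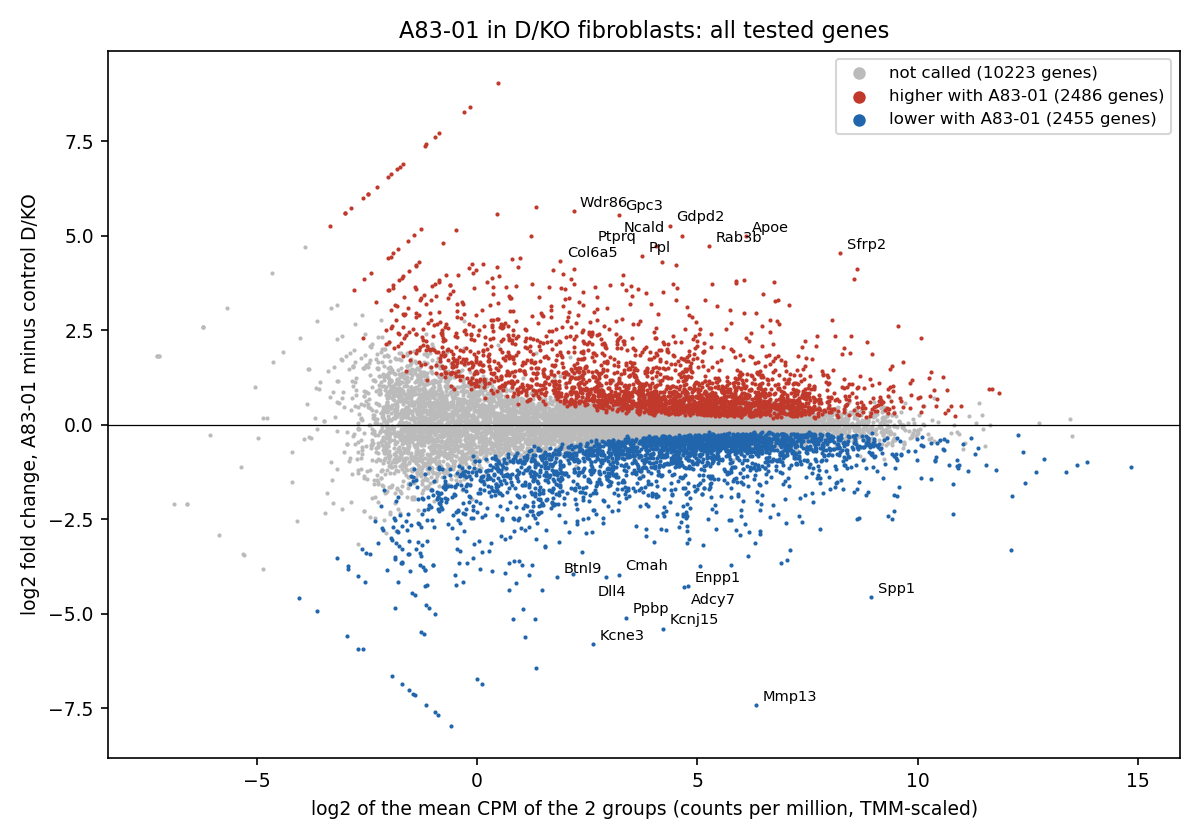
Log2 fold change of A83-01 minus control D/KO (y) against the log2 mean CPM of both groups (x), 1 point per tested gene, red for called higher, blue for called lower and grey for not called at an adjusted p of 0.05. Mmp13 at -7.41 is the lowest and Wdr86 at 5.66 the highest of the labelled genes, and the diagonal rows at the left are genes with no counts in one group.

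Of the receptors that A83-01 targets, Tgfbr1 (ALK5, GRCm39 chr4:47353222-47414931, plus strand) was itself at 68.5, 75.8 and 70.8 CPM in the control libraries and 34.9, 37.6 and 34.3 CPM with A83-01, a log2 fold change of -1.01 ± 0.15 (edgeR adjusted p = 7.69e-05). The lowest control library held more than the highest treated one. Acvr1b (ALK4) was at 13.1, 20.3 and 18.5 CPM in the control libraries and 11.6, 14.5 and 11.01 CPM with A83-01, and its difference did not pass (-0.48 ± 0.20, edgeR adjusted p = 0.0702). Acvr1c (ALK7) had 1 count over the 3 control libraries and 3 over the treated ones and stayed below the expression filter. Over the 12 tested receptors and co-receptors, 5 were lower and 1 higher, 41.7% and 8.33% against 16.2% and 16.4% of all genes, with a median log2 fold change of -0.29. Besides Tgfbr1 these were the BMP receptors Acvr1 (ALK2, -0.77 ± 0.07), Bmpr1b (-2.21 ± 0.39) and Acvrl1 (-0.26 ± 0.07) and the type II receptor Acvr2a (-0.65 ± 0.16), while the type II receptor Acvr2b rose from 0.814 ± 0.274 to 2.72 ± 0.0933 CPM (SD, n = 3). The type II receptors Tgfbr2 (-0.10 ± 0.15) and Bmpr2 (-0.31 ± 0.20) were not called.

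Ligands and their secreted antagonists were mostly higher: 13 of 22 tested were higher and 5 lower, 59.1% and 22.7% against 16.4% and 16.2% of all genes (median 0.52). The median was lower with 1 library left out, at 0.3875 to 0.4706, and under other filters and sets of libraries, at 0.4052 to 0.414. Tgfb1, the principal TGFb ligand, fell from 96.2, 87.7 and 82.6 CPM to 35.5, 38.2 and 35.8 CPM (-1.28 ± 0.10), whereas Tgfb2 (0.64 ± 0.18) and Tgfb3 (0.40 ± 0.09) rose. Tgfb2 was not called without A83-01 replicate 2 or control replicate 3. Inhbb, the activin B subunit, was at 331, 323 and 372 CPM in the control libraries and 1033, 997 and 1011 CPM with A83-01 (1.57 ± 0.09), and the related subunit gene Inhba was not called (0.40 ± 0.18). The BMP ligands Bmp4 (1.30 ± 0.14), Bmp6 (1.79 ± 0.14) and Bmp2 (2.31 ± 0.51) all rose, Bmp2 from under 0.3 CPM. Several antagonists rose with them, among them the activin binder Fst (1.51 ± 0.13) and the BMP binders Nog (1.63 ± 0.18) and Chrdl1 (3.03 ± 0.19), while the antagonist Fstl3 (-1.09 ± 0.19) fell. Chrdl1 was at 9.39, 12.4 and 13.4 CPM in the control libraries and 88.8, 98.5 and 99.8 CPM with A83-01. Sostdc1, another BMP antagonist, had 0 counts in control libraries and 37 with A83-01, at least 9.48-fold higher against a floor of 3 counts over the group.

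Among 12 SMAD genes and regulators, 2 were higher and 1 lower (median 0.18), a share of 25% against 32.6% of all genes. Neither Smad2 (0.18 ± 0.12), Smad3 (0.30 ± 0.15), Smad4 (-0.19 ± 0.14), Smad1 (-0.18 ± 0.08) nor Smad5 (-0.10 ± 0.10) was called. The inhibitory Smad6 rose from 30.5 ± 0.643 to 101 ± 3.33 CPM (SD, n = 3) and Smad9, a SMAD of the BMP branch, from 2.68 ± 0.245 to 12.1 ± 0.983 CPM. The corepressor Skil fell from 47.3 ± 1.98 to 7.43 ± 0.5998 CPM. The inhibitory Smad7 was at 38.1, 34.7 and 32.4 CPM in the control libraries and 41.03, 43.2 and 39.1 CPM with A83-01 and was not called (0.23 ± 0.09, edgeR adjusted p = 0.052). With the 6 libraries alone in the fit, 5 of the 12 were called.

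Most genes that TGFb is known to raise in fibroblasts fell. Of 18 tested, 14 were lower and 2 higher, against 16.2% and 16.4% of all genes, and the median log2 fold change was -2.03. Tgfbi, an extracellular adhesion protein named for its induction by TGFb, was at 102, 117 and 111 CPM in the control libraries and 13.4, 15.9 and 14.3 CPM with A83-01 (-2.92 ± 0.12, edgeR adjusted p = 2.84e-11). Ccn2, connective tissue growth factor, was at 735, 702 and 633 CPM in the control libraries and 131, 118 and 123 CPM with A83-01 (-2.48 ± 0.11). In each of these genes the lowest control library was more than 4 times the highest treated one. Cthrc1 (-3.18 ± 0.20) and Lrrc15 (-3.14 ± 0.23), both markers of activated fibroblasts, fell furthest. Pmepa1, a feedback inhibitor of the pathway, fell from 360.5 ± 5.13 to 104 ± 4.72 CPM (SD, n = 3), and the latent TGFb binding protein Ltbp2 from 1773 ± 182 to 926 ± 47.3 CPM. The 2 genes that rose were the AP-1 subunit Junb, from 216 ± 9.01 to 421 ± 28.4 CPM, and the CDK inhibitor Cdkn2b, from 103 ± 8.05 to 197 ± 18.3 CPM. Tgfb1i1 (0.09 ± 0.07) and Smad7 were not called.

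The promoters of 2 of these genes are shown with the SMAD element CAGAC, searched on both strands, in capitals, chosen from the called members with the smallest p-values that hold it. The sequences run 5′ to 3′ on the gene's strand from 250 bases before the GENCODE start, 300 bases in all, in GRCm39, and were read for Tgfbi (chr13:56757118-56757417, plus strand) and Pmepa1 (chr2:173118283-173118582, minus strand).
Tgfbi: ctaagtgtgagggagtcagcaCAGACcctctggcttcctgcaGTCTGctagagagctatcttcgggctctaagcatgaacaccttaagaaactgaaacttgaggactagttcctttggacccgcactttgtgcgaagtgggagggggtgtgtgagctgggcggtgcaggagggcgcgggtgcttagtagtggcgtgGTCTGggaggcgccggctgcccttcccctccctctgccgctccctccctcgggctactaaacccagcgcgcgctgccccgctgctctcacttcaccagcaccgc
Pmepa1: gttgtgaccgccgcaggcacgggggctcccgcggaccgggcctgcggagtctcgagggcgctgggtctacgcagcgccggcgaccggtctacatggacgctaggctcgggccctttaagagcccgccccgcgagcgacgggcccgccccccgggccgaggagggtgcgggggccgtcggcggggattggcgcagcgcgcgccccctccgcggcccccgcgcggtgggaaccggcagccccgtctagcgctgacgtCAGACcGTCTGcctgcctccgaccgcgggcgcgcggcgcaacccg
The element stands at 3 places in Tgfbi and at 2 in Pmepa1. It is short, and 48.4% of 21111 promoters of this length hold it, against 12 of 17 in the list. A match is a description of the letters and not a site of binding.

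Genes that BMP is known to raise went the other way: 11 of 13 tested were higher and 1 lower, 84.6% and 7.69% against 16.4% and 16.2% of all genes, with a median of 1.63. The inhibitor of DNA binding Id4 was at 18.8, 17.2 and 18.8 CPM in the control libraries and 143, 139.8 and 146 CPM with A83-01 (2.97 ± 0.11, edgeR adjusted p = 8.87e-12). The transcription factor Atoh8 was at 28.1, 26.5 and 22.3 CPM in the control libraries and 181, 164 and 179.7 CPM with A83-01 (2.77 ± 0.10). In both, the 3 libraries of a group stood close together and the groups lay far apart. Id2 rose from 13.03 ± 2.68 to 58.4 ± 3.22 CPM, Id1 from 20.6 ± 1.89 to 59.5 ± 13.9 CPM and Id3 from 99.2 ± 3.66 to 210.2 ± 14.5 CPM (SD, n = 3). The Notch and BMP target Hey1 (2.45 ± 0.27) and the homeobox gene Msx1 (0.75 ± 0.18) rose as well, and the pseudoreceptor Bambi rose by less (0.73 ± 0.26, edgeR adjusted p = 0.0416), a call that was lost without A83-01 replicate 1 or 3 or control replicate 2 or 3. Msx2 was not called (0.36 ± 0.19).

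The promoters of 2 members are given with the GC-rich SMAD element GGCGCC, which reads the same on both strands, in capitals, again from 250 bases before the start in GRCm39. Id4 lies at chr13:48414308-48414607 and Smad9 at chr3:54662713-54663012, both on the plus strand.
Id4: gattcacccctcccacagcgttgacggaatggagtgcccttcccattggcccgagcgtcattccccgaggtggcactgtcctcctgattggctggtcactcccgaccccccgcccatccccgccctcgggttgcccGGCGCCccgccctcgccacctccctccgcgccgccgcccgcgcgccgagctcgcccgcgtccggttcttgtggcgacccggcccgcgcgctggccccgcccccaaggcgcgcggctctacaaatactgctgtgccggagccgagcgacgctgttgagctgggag
Smad9: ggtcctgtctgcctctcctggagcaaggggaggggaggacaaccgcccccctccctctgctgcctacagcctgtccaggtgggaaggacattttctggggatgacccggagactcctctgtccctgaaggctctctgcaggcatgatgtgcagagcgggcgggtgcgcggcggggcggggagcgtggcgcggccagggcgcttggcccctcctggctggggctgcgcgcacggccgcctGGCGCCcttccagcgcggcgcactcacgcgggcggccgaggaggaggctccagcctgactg
Each holds it at 1 place. It was found in 5 of 12 promoters of the list and in 12.4% of all 21111. Of the other motifs searched on both strands, the CArG box stood in 3 of 18 promoters of contractile genes and in 1.57% of all, and the sterol element TCACNCCAC in 1 of 23 promoters of sterol genes and in 1.35% of all.

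**Figure D2:**
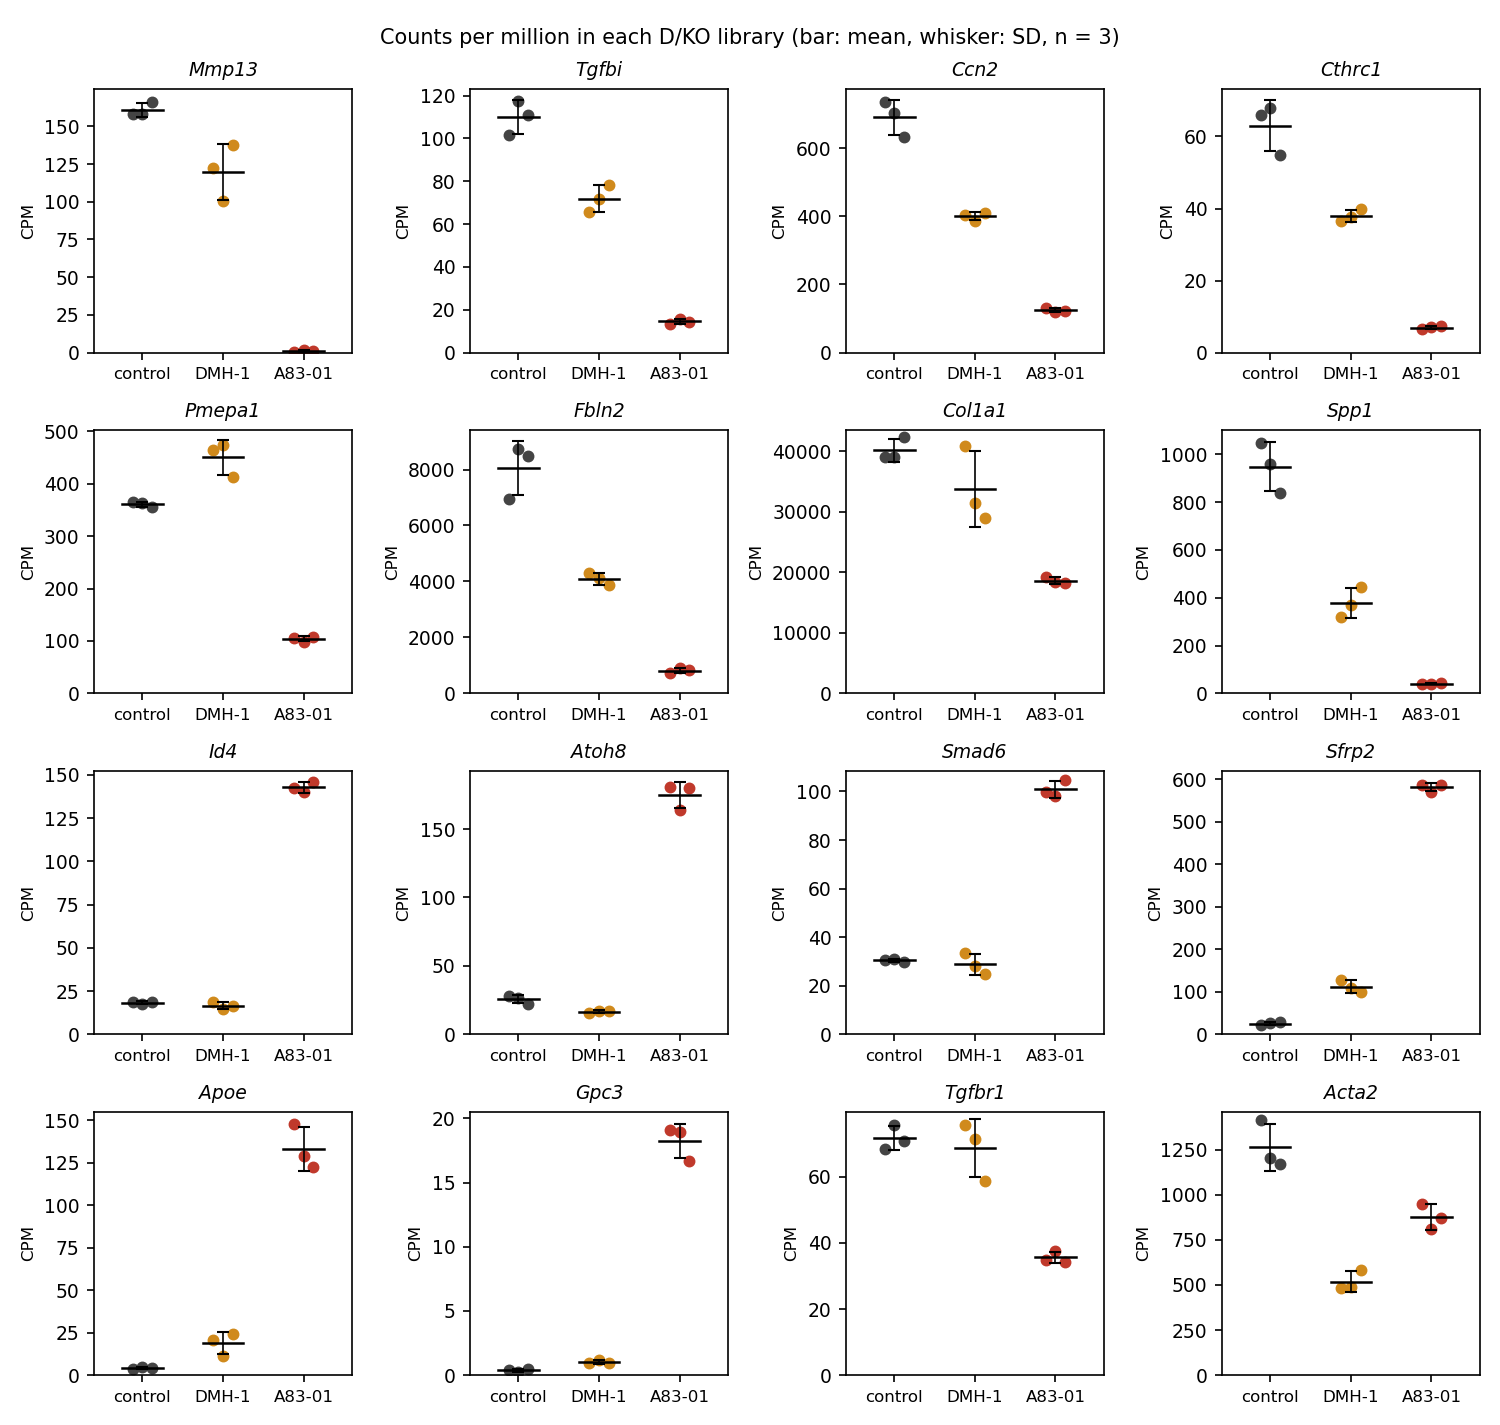
CPM (y, linear, from 0) in each of the 3 libraries of control D/KO cells, of cells with DMH-1 and of cells with A83-01 (x) for 16 genes, with the mean as a bar and the SD as whiskers. In Mmp13, Tgfbi, Ccn2 and Pmepa1 the A83-01 libraries lie below the other 6, in Id4, Atoh8, Smad6 and Gpc3 above them, and in Acta2 between the DMH-1 libraries (485, 486 and 584 CPM) and the control libraries.

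A83-01 and DMH-1 were given at the same dose and time to the same cells, so the pair was compared directly. In the same edgeR quasi-likelihood fit 3845 genes (25.4%) differed, 1811 higher with A83-01 (11.9%) and 2034 lower (13.4%). The median log2 difference over all tested genes was -0.0047. The contrasts against control and against DMH-1 use the same 3 A83-01 libraries. The BMP targets were higher with A83-01 in 10 of 13 cases and lower in none (median 1.92). Atoh8 was at 15.3, 17.3 and 16.9 CPM with DMH-1 (A83-01 minus DMH-1 3.41 ± 0.10, edgeR adjusted p = 2.44e-12) and Id4 at 18.6, 14.9 and 16.1 CPM (3.11 ± 0.11). Of the TGFb targets, 12 of 18 were lower with A83-01 and 4 higher (median -1.46). Pmepa1 was at 465, 473 and 412 CPM with DMH-1 (-2.11 ± 0.08). Ltbp2 (0.37 ± 0.16) and Il11 (-0.06 ± 0.32) were not called between the compounds. Smad7 and Tgfb1i1, not called against control, were higher than with DMH-1 (0.82 ± 0.09 and 0.52 ± 0.07).

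Other genes that separated A83-01 from both controls and DMH-1 included the lymphangiogenic ligand Vegfd, counted at 166, 164 and 164 CPM in control, 163, 185 and 191 CPM with DMH-1 and 755, 730.4 and 776 CPM with A83-01. The growth factor receptor Fgfr2 was at 5.23, 5.64 and 5.93 CPM in control, 9.38, 9.04 and 6.67 CPM with DMH-1 and 69.95, 81.3 and 71.9 CPM with A83-01. The A83-01 libraries of both genes lay above all 6 others, but genes were named here for small p-values, so this separation is no further support. Among the falls, Sertad4 was at 124, 141 and 128 CPM in control, 120.3, 116 and 102 CPM with DMH-1 and 11.2, 13.0 and 11.2 CPM with A83-01. The actin regulator Rflnb was at 78.5, 71.3 and 65.02 CPM in control, 83.1, 75.01 and 71.6 CPM with DMH-1 and 15.02, 14.4 and 14.2 CPM with A83-01.

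**Figure D3:**
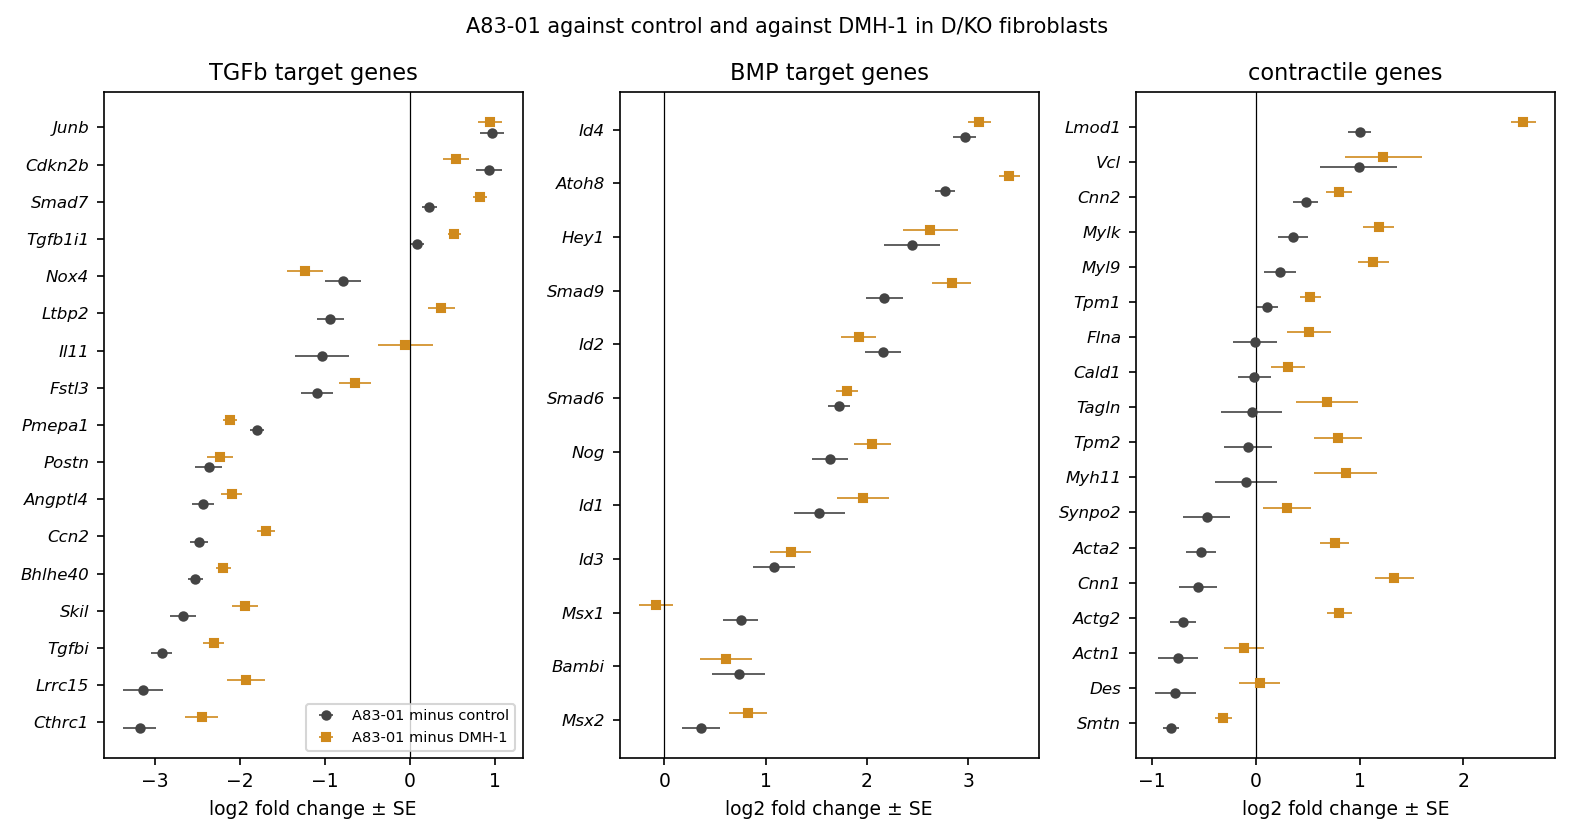
Log2 fold change with its standard error (x) of the tested members of 3 lists (y), with 1 TGFb target and 1 BMP target not shown, as A83-01 minus control (circles) and A83-01 minus DMH-1 (squares). The 2 contrasts lie on the same side of 0 for most TGFb and BMP targets, while contractile genes such as Cnn1 (-0.56 and 1.34) lie on opposite sides.

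Contractile genes of smooth muscle and myofibroblasts gave a mixed picture against control, 3 of 18 higher (16.7% against 16.4% of all genes) and 6 lower (33.3% against 16.2%) with a median of -0.06, from -0.1264 to -0.0117 with 1 library left out. Acta2, smooth muscle actin, was at 1413, 1206 and 1169 CPM in the control libraries and 950.1, 809.8 and 870.1 CPM with A83-01 (-0.53 ± 0.14, edgeR adjusted p = 0.00926), with no overlap between the groups, and the call was lost without control replicate 1. The calponin Cnn1 fell from 127 ± 13.4 to 86.02 ± 3.75 CPM and the actin Actg2 from 177 ± 16.6 to 109 ± 4.94 CPM, while the leiomodin Lmod1 rose from 40.6 ± 0.936 to 81.4 ± 2.46 CPM (SD, n = 3). The call of Cnn1 was lost without control replicate 1 or any 1 of the A83-01 libraries. Vinculin (Vcl) rose with a wide spread (0.99 ± 0.37, edgeR adjusted p = 0.0498) and kept its call only without A83-01 replicate 1 among the 6 fits that left a library out. The actin crosslinker Flna (-0.01 ± 0.21), Cald1 (-0.01 ± 0.16) and Tpm1 (0.11 ± 0.10) were not called. Tagln was counted at only 9.03, 7.49 and 7.86 CPM in control libraries and shares exon bases with Pcsk7 on the other strand, so its count is uncertain. Against DMH-1, 11 of 18 were higher with A83-01 and 1 lower (median 0.78), against 11.9% and 13.4% of all genes in that contrast. Without DMH-1 replicate 2 there were 8 and 1. Acta2 was 0.76 ± 0.14 higher, Cnn1 1.34 ± 0.19 and Lmod1 2.58 ± 0.12 on the log2 scale. DMH-1 itself lowered these 3 genes against control, Acta2 by -1.28, Cnn1 by -1.89 and Lmod1 by -1.58. The list median with DMH-1 against control was -0.80.

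Most collagen chains fell. Of 23 tested, 15 were lower and 2 higher, 65.2% and 8.7% against 16.2% and 16.4% of all genes (median -0.97). Col1a1, a chain of type I collagen, was at 39060.1, 38979.9 and 42292 CPM in the control libraries and 19283, 18384 and 18152 CPM with A83-01 (-1.11 ± 0.13, edgeR adjusted p = 4.55e-06). Col3a1 (-1.06 ± 0.13) and the fibril-nucleating chains Col5a1 (-1.87 ± 0.17) and Col5a2 (-1.54 ± 0.14) fell as well, and the anchoring fibril chain Col7a1 fell furthest, from 41.8 ± 4.697 to 6.35 ± 0.9997 CPM (SD, n = 3). The basement membrane chains Col4a1 (-1.07 ± 0.25) and Col4a2 (-1.15 ± 0.21), which overlap each other, were also lower. In the list Col10a1 (1.85 ± 0.28) and Col14a1 (0.88 ± 0.21) rose, as did Col6a5, which is outside it, while Col6a3 (-0.63 ± 0.33), Col16a1 (-0.21 ± 0.12) and 4 others of the list were not called.

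The enzymes that fold, hydroxylate, cleave and crosslink collagen moved with it, 19 of 24 lower and 1 higher, 79.2% and 4.17% against 16.2% and 16.4% of all genes (median -0.98). The lysyl hydroxylase Plod1 was at 994, 1081 and 1151 CPM in the control libraries and 192, 212 and 198 CPM with A83-01 (-2.42 ± 0.10). The lysyl oxidase Lox was at 8838, 9555 and 9272 CPM in the control libraries and 3478, 4114 and 4031 CPM with A83-01 (-1.25 ± 0.13). The treated libraries of both genes lay below every control library. The prolyl hydroxylases P4ha1 (-0.93 ± 0.07), P4ha2 (-1.78 ± 0.10) and P4ha3 (-2.32 ± 0.29), the lysyl hydroxylase Plod2 (-2.13 ± 0.10) and the oxidases Loxl2 (-1.64 ± 0.12), Loxl3 (-1.87 ± 0.10) and Loxl4 (-2.14 ± 0.28) fell too. The collagen chaperone Serpinh1 fell by less (-0.50 ± 0.08), and the exception was the procollagen enhancer Pcolce, which rose (0.31 ± 0.09), though it was not called without A83-01 replicate 1 or control replicate 2. Against DMH-1, 18 of the 24 were lower with A83-01 and none higher, against 13.4% and 11.9% of all genes in that contrast.

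Elastic fibre and matricellular genes split, with 15 of 26 lower and 8 higher, 57.7% and 30.8% against 16.2% and 16.4% of all genes (median -0.78). Fbln2, a fibulin of elastic fibres, was at 6948, 8718 and 8466 CPM in the control libraries and 715, 898 and 833 CPM with A83-01 (-3.30 ± 0.17, edgeR adjusted p = 3.69e-10). Periostin (Postn) was at 2606, 3314 and 2981 CPM in the control libraries and 502, 670.0 and 554 CPM with A83-01 (-2.37 ± 0.15), and Cilp, a cartilage matrix protein, fell from 385 ± 49.8 to 57.4 ± 4.83 CPM (SD, n = 3). The fibrillin Fbn1 (-1.18 ± 0.31), tenascin C (Tnc, -1.58 ± 0.24), Sparc (-0.90 ± 0.10) and fibronectin (Fn1, -1.26 ± 0.39, not called without A83-01 replicate 1 or 3 or control replicate 2 or 3) were lower. In the opposite direction, elastin (Eln) was at 11.7, 13.9 and 11.98 CPM in the control libraries and 73.02, 57.6 and 67.6 CPM with A83-01 (2.40 ± 0.16). Fbln5 (0.80 ± 0.09), Efemp1 (1.19 ± 0.10) and Efemp2 (0.49 ± 0.13), fibulins that take part in elastic fibre assembly, and the latent TGFb binding protein Ltbp1 (1.86 ± 0.15) rose with it. Thbs1, an activator of latent TGFb, was not called (0.14 ± 0.17).

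Matrix-degrading proteases and their inhibitors were lower in 10 of 24 tested and higher in 3, 41.7% and 12.5% against 16.2% and 16.4% of all genes (median -0.35). Next to Mmp13, the stromelysin Mmp3 was at 167, 145 and 139.9 CPM in the control libraries and 22.6, 20.1 and 21.1 CPM with A83-01 (-2.82 ± 0.18, edgeR adjusted p = 4.99e-09). Mmp10 (-4.16 ± 0.64), Mmp11 (-1.60 ± 0.10), the aggrecanase Adamts4 (-2.13 ± 0.24) and the inhibitor Timp1 (-1.55 ± 0.23) also fell. The gelatinase Mmp2 (0.16 ± 0.13) and the membrane-bound Mmp14 (-0.21 ± 0.09) were not called. The inhibitor Timp2 rose from 2131 ± 149 to 4129.6 ± 125 CPM (SD, n = 3), and Timp4 had 0 counts in control libraries and 210 with A83-01, at least 53.8-fold higher against 3 counts over the group.

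The promoters of the called members with the smallest p-values that hold the AP-1 element TGANTCA are given with the element, searched on both strands, in capitals (GRCm39, 300 bases, both on the plus strand, Mmp13 at chr9:7272264-7272563 and Mmp3 at chr9:7445572-7445871).
Mmp13: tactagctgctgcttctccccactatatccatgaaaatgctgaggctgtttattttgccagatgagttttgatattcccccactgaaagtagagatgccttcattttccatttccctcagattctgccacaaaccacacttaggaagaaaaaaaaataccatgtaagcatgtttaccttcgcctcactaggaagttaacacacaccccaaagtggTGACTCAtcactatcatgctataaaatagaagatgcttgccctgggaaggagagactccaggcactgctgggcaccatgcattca
Mmp3: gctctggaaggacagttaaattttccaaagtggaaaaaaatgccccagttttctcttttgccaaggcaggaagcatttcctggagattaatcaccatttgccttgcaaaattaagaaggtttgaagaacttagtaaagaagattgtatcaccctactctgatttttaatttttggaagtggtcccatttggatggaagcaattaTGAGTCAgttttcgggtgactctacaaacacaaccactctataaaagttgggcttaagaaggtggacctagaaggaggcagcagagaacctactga
Each holds 1 match, which begins 35 bases before the start in Mmp13 and 46 bases before it in Mmp3. The list held it in 7 of 24 promoters (29.2%) and all promoters in 7.21%. Of the 7, Mmp9 (-0.47 ± 0.25), Mmp12 (-0.36 ± 0.61) and Plaur (0.09 ± 0.15) were not called.

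Proteoglycans and hyaluronan synthases also split, 8 of 18 lower and 6 higher, 44.4% and 33.3% against 16.2% and 16.4% of all genes (median -0.12). The median was lower under other filters and sets of libraries, down to -0.47 without a filter on low counts, where 20 members were tested. Aspn, a leucine-rich proteoglycan known to bind TGFb, was at 223, 235 and 209 CPM in the control libraries and 16.3, 18.1 and 18.6 CPM with A83-01 (-3.65 ± 0.13, edgeR adjusted p = 3.61e-12). The hyaluronan synthase Has2 (-2.42 ± 0.13), versican (Vcan, -1.87 ± 0.31) and the glypican Gpc1 (-1.78 ± 0.15) fell. Besides Gpc3, the small leucine-rich proteoglycans decorin (Dcn, 0.90 ± 0.09), fibromodulin (Fmod, 1.21 ± 0.12) and Ogn (1.08 ± 0.12) and the syndecan Sdc2 (1.21 ± 0.07) rose.

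Glycolytic enzymes and transporters fell together: 18 of 20 were lower, 90% against 16.2% of all genes, and none higher (median -0.83). The hexokinase Hk2 was at 74.2, 72.6 and 71.9 CPM in the control libraries and 19.2, 21.01 and 18.8 CPM with A83-01 (-1.89 ± 0.13, edgeR adjusted p = 1.33e-08). The lactate exporter Slc16a3 was at 425, 409.7 and 432 CPM in the control libraries and 133, 139 and 134 CPM with A83-01 (-1.64 ± 0.09). In neither did the groups overlap. The regulator Pfkfb3 (-2.25 ± 0.21), Pgk1 (-1.43 ± 0.13), Pdk1 (-1.49 ± 0.09) and the glucose transporter Slc2a1 (-0.71 ± 0.07) fell, and Pfkm (-0.10 ± 0.08) and Eno2 (-0.06 ± 0.09) were not called. Against DMH-1, 16 of the 20 were lower with A83-01, against 13.4% of all genes in that contrast. Of 24 genes of sterol synthesis and its control, 7 were higher and 1 lower (median 0.15), a share of 33.3% that is near the 32.6% of all genes. Insig1, which holds the SREBP processing complex in the endoplasmic reticulum, rose from 37.6 ± 2.23 to 57.05 ± 2.52 CPM (SD, n = 3).

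Mitotic genes were lower in 24 of 26 cases, 92.3% against 16.2% of all genes, and higher in none (median -1.59). Top2a, the topoisomerase of dividing cells, was at 32.7, 35.8 and 32.9 CPM in the control libraries and 10.2, 11.4 and 6.17 CPM with A83-01 (-1.87 ± 0.20, edgeR adjusted p = 1.74e-06). The proliferation marker Mki67 was at 13.3, 17.3 and 18.9 CPM in the control libraries and 6.14, 4.12 and 2.62 CPM with A83-01 (-1.94 ± 0.42). The treated libraries of both genes lay below all controls and were themselves spread by over 1.5-fold. The spindle checkpoint genes Bub1 (-2.30 ± 0.31) and Bub1b (-1.92 ± 0.22), the kinases Plk1 (-1.99 ± 0.28) and Aurka (-1.57 ± 0.17) and the cyclin Ccnb1 (-1.81 ± 0.26) fell, while Cdk1 (-0.24 ± 0.18) and Bub3 (-0.04 ± 0.13) were not called. Of 28 genes of DNA replication, 14 were lower, 50% against 16.2%, and none higher (median -0.56). The cyclin Ccne1 fell from 21.1 ± 1.21 to 6.11 ± 0.227 CPM (SD, n = 3) and the helicase subunit Mcm5 from 11.2 ± 0.708 to 4.18 ± 0.912 CPM, but Pcna (0.11 ± 0.21), Mcm4 (-0.03 ± 0.08) and Mcm7 (0.00 ± 0.09) were not called.

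Among 22 cyclin-dependent kinase inhibitors and p53 targets, 11 were higher and 3 lower, 50% and 13.6% against 16.4% and 16.2% of all genes (median 0.39). Cdkn1a (p21) was at 542, 533 and 539 CPM in the control libraries and 747, 679.7 and 754 CPM with A83-01 (0.43 ± 0.07, edgeR adjusted p = 0.000142). Cdkn1c (p57) rose from 2.12 ± 0.379 to 10.99 ± 1.19 CPM (SD, n = 3), and the antiproliferative Btg2 from 70.3 ± 3.19 to 189 ± 9.02 CPM. Cdkn2a, the locus of p16 and p19 Arf, was not called (0.28 ± 0.26). The p53 targets Mdm2 (0.48 ± 0.08), Fas (0.85 ± 0.15) and Sesn1 (0.84 ± 0.10) rose, whereas Trp53 itself (-0.34 ± 0.07), Gadd45a (-0.85 ± 0.20) and Plk2 (-1.08 ± 0.10) fell.

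The DNA repair lists were called about as often as all genes or less, 23.8% for nucleotide excision repair, 30.0% for homologous recombination and crosslink repair and 31.2% for end joining against 32.6%. Of 21 nucleotide excision repair genes, 2 were higher and 3 lower (median 0.05, and below 0 without A83-01 replicate 2 at -0.03 or control replicate 2 at -0.04). Ercc1 itself was lower (-0.46 ± 0.16, edgeR adjusted p = 0.0339), and it was not called once any of 5 of the 6 libraries was left out, A83-01 replicate 1 being the exception. Its partner nuclease Ercc4 was not called (0.28 ± 0.10), the other incision nuclease Ercc5 rose from 28.9 ± 1.24 to 48.9 ± 1.301 CPM (SD, n = 3) and the damage sensor Xpc from 13.4 ± 1.01 to 21.2 ± 1.94 CPM, and Rad23b, which holds Xpc, fell from 225 ± 7.63 to 145 ± 1.18 CPM. Of 30 genes of homologous recombination and crosslink repair, 6 were lower and 3 higher (median -0.25). Among these, Brca1 (-1.12 ± 0.36), Brip1 (-1.74 ± 0.42) and Exo1 (-1.43 ± 0.38) were lower at levels under 4 CPM. Fancc (0.57 ± 0.13), Fance (0.40 ± 0.14) and Fancf (0.47 ± 0.16) rose. The call of Fance was lost when any 1 of the 6 libraries was left out and that of Fancf without A83-01 replicate 2 or 3 or control replicate 2 or 3. Of 16 end joining genes, 3 were lower and 2 higher (median -0.17, from -0.2213 to -0.0852 with 1 library left out), with Lig3 (-0.83 ± 0.23) and Lig4 (-0.45 ± 0.13) lower and Xrcc1 (0.51 ± 0.11) and Paxx (0.80 ± 0.24) higher. The calls of Brca1, Exo1, Lig3, Lig4 and Paxx were lost in 1 or 2 of the 6 fits that left a library out. With 1 of the 6 libraries left out, the counts called ran from 3 to 5 for excision repair, from 5 to 8 for homologous repair and from 3 to 4 for end joining. The lowest counts were those without A83-01 replicate 2 or control replicate 1 for excision repair and without control replicate 2 or 3 for homologous repair, and end joining stayed at 3 without A83-01 replicate 2 or 3 or control replicate 2 or 3.

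Secreted cytokines and chemokines were lower in 11 of 19 tested and higher in 3, 57.9% and 15.8% against 16.2% and 16.4% of all genes (median -0.86). The neutrophil chemokine Cxcl5 was at 328, 331 and 286 CPM in the control libraries and 71.8, 77.03 and 82.05 CPM with A83-01 (-2.03 ± 0.17, edgeR adjusted p = 7.38e-08). The alarmin Il33 was at 3.89, 4.51 and 3.62 CPM in the control libraries and 0.283, 0.08003 and 0.0391 CPM with A83-01 (-4.86 ± 0.36), near 0 in the treated libraries. The monocyte chemokine Ccl7 (-1.80 ± 0.22), Cxcl1 (-0.97 ± 0.17) and the angiogenic factor Vegfa (-0.89 ± 0.07) fell. Cxcl12, a chemokine of stromal cells, rose from 193, 221 and 227 CPM to 739, 825 and 805 CPM (1.89 ± 0.09), and the epithelial cytokine Tslp rose at a low level (2.64 ± 0.44). Il6 was under 0.5 CPM in all 6 libraries and was not called (-0.26 ± 0.64), and Il1a and Il1b had 0 counts in them, which allows at most 3 counts over each group.

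Complement genes rose in 9 of 17 cases and fell in 2, 52.9% and 11.8% against 16.4% and 16.2% of all genes (median 1.13, and 1.868 with only genes of at least 10 counts in every library). The C1 inhibitor Serping1 was at 86.6, 93.6 and 96.7 CPM in the control libraries and 479, 472 and 452 CPM with A83-01 (2.34 ± 0.11, edgeR adjusted p = 6.78e-11). The classical pathway proteases C1ra (2.08 ± 0.13) and C1s1 (2.21 ± 0.15) and component C3 (1.94 ± 0.33) rose, and so did C4b (3.30 ± 0.27), whose reads may be split with a near-identical copy. The lectin pathway protease Masp1 fell from 463 ± 52.6 to 208 ± 22.2 CPM (SD, n = 3). C7 had 19 counts in control libraries and 0 with A83-01, at least 8.24-fold lower against 3 counts over the group. The subunits of C1q, a product of macrophages, stayed at or below 1.62 CPM in each library and were not called, and the 7 leukocyte markers summed to 4.98 to 5.36 CPM in control libraries and 5.70 to 8.04 CPM with A83-01, of which only the macrophage marker Adgre1 was called (0.3705 to 1.89 CPM), and not without A83-01 replicate 1 or 2 or control replicate 2 or 3.

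Of 23 interferon-stimulated genes, 5 were called higher and none lower (median 1.15), a share of 21.7% called higher against 16.4% of all genes and of 21.7% called against 32.6%. The median difference of the list from the control mean was 1.13 in A83-01 replicate 1, 1.05 in replicate 2 and 0.24 in replicate 3, so replicate 3 stood apart. Ifit2 was at 13.5, 15.5 and 15.5 CPM in the control libraries and 39.1, 44.2 and 42.8 CPM with A83-01 (1.50 ± 0.16, edgeR adjusted p = 1.29e-06). Ifit3 was at 2.15, 2.15 and 2.25 CPM in the control libraries and 21.5, 22.6 and 15.9 CPM with A83-01 (3.19 ± 0.79), though its reads may be split with the near-identical Ifit3b. All treated libraries lay above all controls in both. The RNA sensor Ifih1 (1.64 ± 0.48), Gbp2 (1.15 ± 0.34) and Cmpk2 (2.10 ± 0.72) were the others. The call of Cmpk2 was lost when any 1 of the 6 libraries was left out and that of Ifih1 without control replicate 2. The spread of these genes was estimated with the DMH-1 libraries in the fit, and 1 of these, replicate 2, held them far above its fellows. Without it in the fit 12 of 23 were called higher, and with the 6 libraries alone 14 of the 21 then tested. Without control replicate 2 the count was 3. Isg15, not called in the first fit, was at 2.19, 2.67 and 1.498 CPM in the control libraries and 7.67, 5.12 and 2.85 CPM with A83-01 (1.28 ± 1.07). Against DMH-1, 16 were lower with A83-01 (median -2.57), against 13.4% of all genes in that contrast. But without that DMH-1 library none was lower and 3 were higher (median -0.01).

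Wnt pathway genes rose in 14 of 23 cases and fell in 4, 60.9% and 17.4% against 16.4% and 16.2% of all genes (median 0.97). The feedback target Nkd1 was at 2.23, 2.67 and 2.496 CPM in the control libraries and 17.6, 15.3 and 18.5 CPM with A83-01 (2.80 ± 0.14, edgeR adjusted p = 2.28e-10). The ligand Wnt2 was at 4.34, 3.13 and 4.37 CPM in the control libraries and 30.7, 28.5 and 31.7 CPM with A83-01 (2.94 ± 0.16), and Lgr5, a receptor of R-spondins, at 7.42, 8.82 and 8.55 CPM in the control libraries and 50.3, 58.1 and 55.2 CPM with A83-01 (2.72 ± 0.20). The groups were widely apart in each. The feedback target Axin2 rose at a low level, from 0.468 ± 0.0854 to 2.003 ± 0.105 CPM (SD, n = 3), and the transcription factor Lef1 from 4.33 ± 0.199 to 8.98 ± 0.831 CPM. Secreted antagonists rose as well, Sfrp1 (2.02 ± 0.17) and Dkk2 (0.77 ± 0.11) among them, and the Wnt deacylase Notum had 0 counts in control libraries and 83 with A83-01, at least 21.3-fold higher against 3 counts over the group. Wnt9a (-1.99 ± 0.20) and Frzb (-1.05 ± 0.13) fell, and the ligand Wnt5a was not called (0.05 ± 0.18). Against DMH-1, 16 of 23 were higher with A83-01 and 4 lower, against 11.9% and 13.4% of all genes in that contrast.

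Of 12 tested adipogenic genes, 7 were higher and 2 lower, 58.3% and 16.7% against 16.4% and 16.2% of all genes (median 1.36). The adipocyte regulator Pparg was at 1.56, 2.001 and 1.06 CPM in the control libraries and 11.9, 7.72 and 11.1 CPM with A83-01 (2.71 ± 0.25, edgeR adjusted p = 2.49e-07) and Cebpa at 32.1, 31.8 and 34.1 CPM in the control libraries and 116, 108 and 119 CPM with A83-01 (1.81 ± 0.12). Lipoprotein lipase (Lpl) rose from 50.4 ± 2.74 to 161 ± 13.2 CPM (SD, n = 3). The fatty acid binding protein Fabp4 fell (-0.80 ± 0.26), a call lost without A83-01 replicate 2 or 3 or control replicate 1, and the adipocyte genes Adipoq and Plin1 had at most 3 counts over a group. Against DMH-1, 3 of the 12 were higher and 4 lower, against 11.9% and 13.4% of all genes in that contrast. Without DMH-1 replicate 2 there were 3 and 2.

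**Figure D4:**
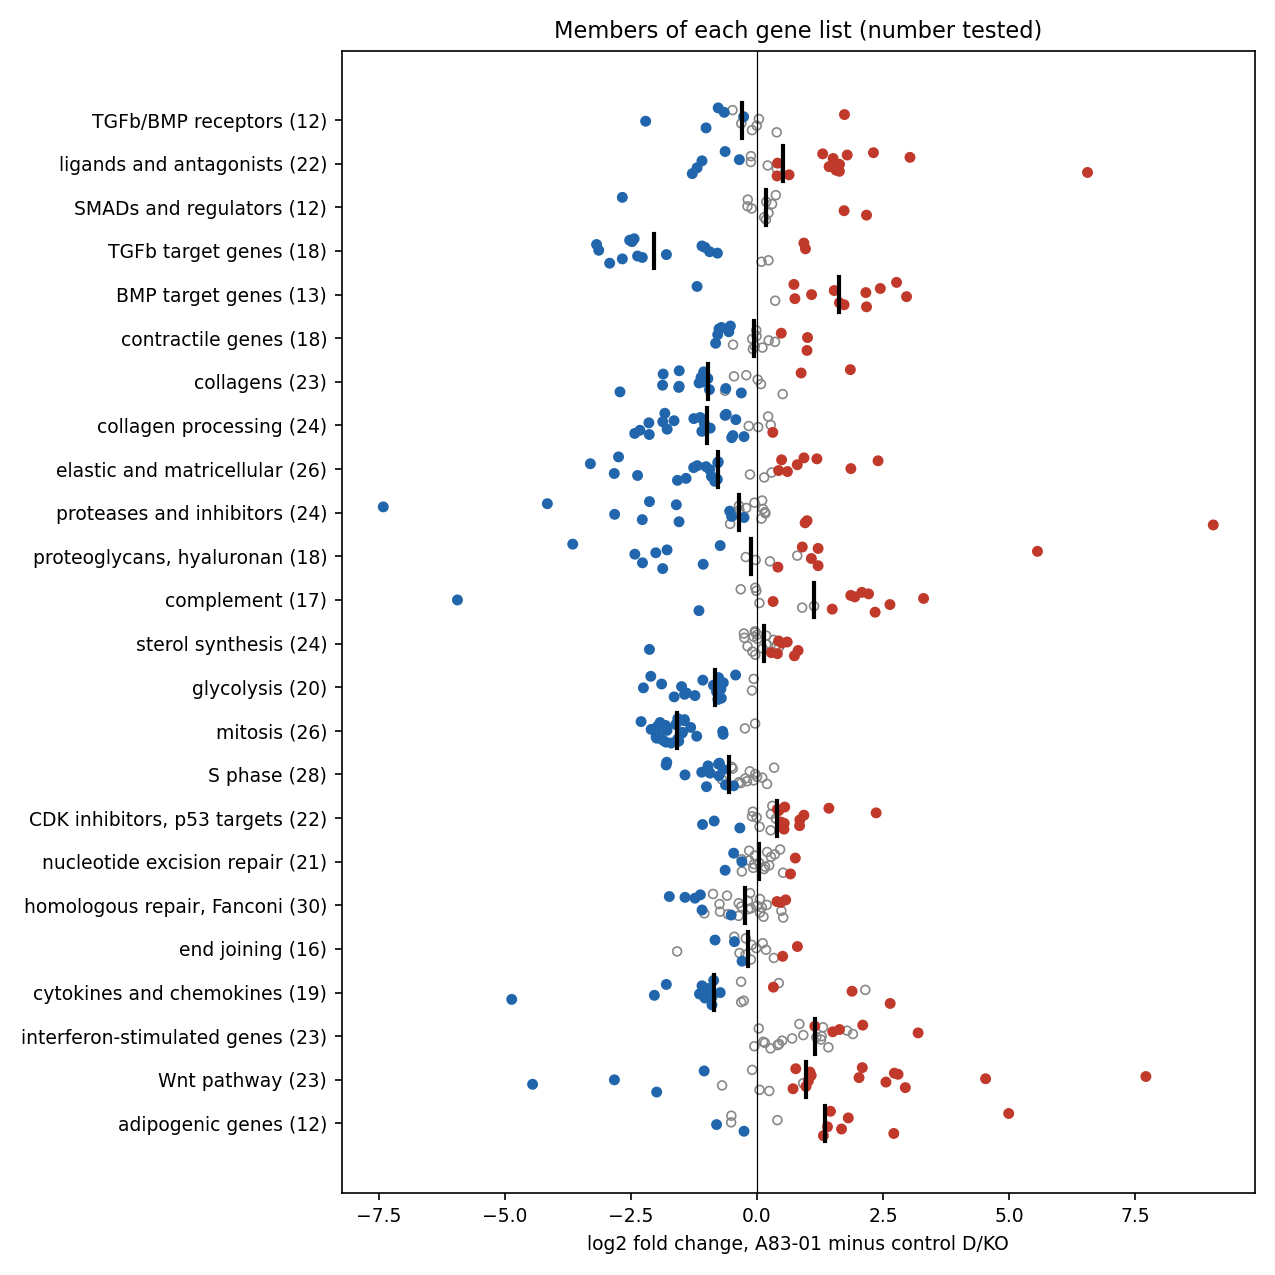
Log2 fold change of A83-01 minus control D/KO (x) for each tested member of the 24 lists (y, number tested in brackets), filled where called (red higher, blue lower), open where not, with the list median as a black bar. TGFb targets (median -2.03) and mitotic genes (median -1.59) lie lowest and BMP targets (median 1.63) highest.

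Repsox, a further ALK5 inhibitor, and Vactosertib, which the study describes as inhibiting both ALK5 and ALK2, were given at 0.1 µM and not at 1 µM, so their values stand beside those of A83-01 without a comparison, and all 3 use the same control libraries. The median log2 fold change against control over the TGFb targets was -2.03 with A83-01, -1.29 with Repsox and -1.29 with Vactosertib. Over the BMP targets it was 1.63, 1.35 and 1.28, over the collagens -0.97, -0.88 and -0.65 and over the mitotic genes -1.59, -0.76 and -0.96, in the same order. Against the same controls, 25.2% of all genes were called with Repsox, 22.1% with Vactosertib and 9.75% with DMH-1, beside 32.6% with A83-01.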

How the data were processed

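The 6 libraries are polyA RNA of cultured D/KO cells. Per the labels, the authors checked reads with FastQC, trimmed them with Trim Galore, aligned them with HISAT2 to GRCm39 and deposited raw counts of reads per gene, made with featureCounts of the Subread package. Versions, the strand setting and the annotation release are not given in the sources used here. Symbols were taken from GENCODE M39 by gene ID.

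Genes were kept by edgeR's filterByExpr (minimum count 10, minimum total 15) over the 18 libraries of 6 groups, and edgeR 4.0.16 (R 4.3.3, limma 3.58.1) fitted TMM-scaled counts with 1 coefficient per group and a quasi-likelihood test. Adjusted p-values are Benjamini-Hochberg over all 15164 genes, with a threshold of 0.05. The reprogramming experiment of the series and 6 further libraries of the inhibitor experiment (wild-type skin fibroblast controls and Oct4-GFP reporter fibroblasts with the treatment label TGFB) were not used here, except that all 24 libraries of the inhibitor experiment entered 1 alternative fit. The 3 libraries of a group differed among themselves by 4.28 to 33.1 times the variance that counting alone gives, so none was merged, and fold changes of genes with few counts are the least precise. Alternatives were DESeq2 1.42.0, its size factors, other filters, other sets of libraries, a fold threshold, another centring and leaving out each library. The fit was tested on simulated data. Tables and figures used Python 3.11.15, pandas 2.3.3 and matplotlib 3.10.9.

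Named genes are the 10 highest and 10 lowest called protein-coding genes without overlap and with at least 5 CPM in the higher group, the 8 smallest p-values in each direction, up to 6 called members of each list in each direction, its defining members, Ercc1 and the receptors that A83-01 binds, the 6 smallest p-values in each direction against DMH-1, and at most 3 promoters per motif. Some genes and promoters that these rules name are not reported here. Other list members and markers were named after their values were seen. The members and the lists were chosen with earlier results of these data known. Promoters were read from GRCm39 at the GENCODE M39 starts, 250 bases before and 50 after. Those on chromosome 18 were left out, also from the shares over all promoters. A fold for a gene with 0 counts in a group was computed against 3 counts over the group. Days are from the study's methods and doses from a figure legend of the study on another assay of these cells, and the vehicle of the controls is not given in the sources used here.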

Additional observations from a re-analysis of the deposited data

How the results depend on the processing

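No paired analysis was possible because the libraries are numbered singly across the experiment, so the groups compared share no replicate number. Genes called by A83-01 against control ranged from 4070 to 5866 over the other tests, filters, scalings and sets of libraries, and against DMH-1 from 3021 to 4330. Past a log2 change of 1 they numbered 2023 (1062 higher, 961 lower) and 1545 (767 and 778), fewer by construction. Without a filter on low counts the list medians were 0.414 for ligands, -0.4702 for proteoglycans and -0.7214 for cytokines, and 3 excision repair and 3 end joining genes were called. With at least 10 counts in every library they were 0.4122, -0.2134 and, for complement, 1.868. With the 2 groups alone they were 0.4052, -0.2255 and 1.4875, and 5 SMAD and 14 of 21 tested interferon-stimulated genes were called. With all 24 libraries ligands were at 0.4098 and proteoglycans at -0.2207. The cause of these shifts was not tested.

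Leaving out 1 library, DMH-1 replicate 2 included (a choice made after seeing the data for the contrast with control), moved the medians within 0.3875 to 0.4706 for ligands, -0.1264 to -0.0117 for contractile genes, -0.3894 to -0.2409 for proteases, -0.2347 to -0.1481 for proteoglycans, 1.0237 to 1.3571 for complement, 0.1146 to 0.1575 for sterol synthesis, -1.7719 to -1.5355 for mitosis, -0.618 to -0.4887 for S phase, -0.0352 to 0.1027 for excision repair, -0.3189 to -0.2191 for homologous repair, -0.2213 to -0.0852 for end joining, 0.1198 to 0.2251 for SMADs, -0.8908 to -0.782 for cytokines, 0.88 to 1.053 for Wnt genes and 1.2599 to 1.4162 for adipogenic genes. Calls ran from 3 to 5 for excision repair, 5 to 9 for homologous repair, 3 to 5 for end joining and 3 to 12 for interferon-stimulated genes. Each of the 6 libraries cost from 29 to 36 of 546 list, marker and named genes their call against control, and none of these changed sign while called. Among genes described above, Cnn1, Fn1, Fabp4, Fance, Fancf, Cmpk2, Il11, Adgre1, Bambi, Ercc1 and Vcl lost their call in 3 or more of these fits, and Acta2, Brca1, Exo1, Lig3, Lig4, Paxx, Pcolce, Ifih1 and Tgfb2 in 1 or 2. Against DMH-1, leaving out 1 library gave from -1.08 to 0.69 for Ifih1, -0.45 to 0.76 for Gbp2, -1.32 to 1.17 for Cmpk2 and -2.63 to 0.11 for Ifit3, positive for these 4 genes only without DMH-1 replicate 2.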

Other observations

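Markers of other cell types moved with A83-01. All 5 Schwann cell markers were called higher, against 16.4% of all genes. Among them Sox10 rose from 3.82 ± 0.465 to 10.7 ± 1.91 CPM (SD, n = 3). The summed level of the 5 was 10.7 to 13.2 CPM in control libraries and 41.6 to 52.98 CPM with A83-01. Of 5 pericyte markers 2 were higher and 3 lower, and of 12 fibroblast markers 5 and 5, against 16.4% and 16.2% of all genes. Sox9, a regulator of cartilage, fell from 30.9 ± 3.44 to 6.85 ± 1.11 CPM and the pericyte gene Cspg4 from 58.3 ± 8.203 to 31.1 ± 6.97 CPM, a call lost without A83-01 replicate 1 or 3 or control replicate 3, while Notch3 rose from 34.7 ± 7.67 to 81.3 ± 13.1 CPM. Of the keratinocyte markers only the desmosomal gene Dsp was called, from 2.18 ± 0.515 to 11.3 ± 0.872 CPM. Of the fibroblast markers, Thy1 fell from 736 ± 17.7 to 439 ± 6.84 CPM and Fap from 8.55 ± 1.46 to 3.46 ± 1.07 CPM, whereas the mesenchymal transcription factors Twist1, from 92.2 ± 1.86 to 198 ± 9.09 CPM, and Prrx1, from 270.1 ± 4.32 to 388 ± 5.88 CPM, rose, and vimentin (Vim) was not called (0.04 ± 0.13). Whether cell composition has a part in the results above was not tested.

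Untreated wild-type tail tip fibroblasts, 3 libraries of 14-week-old female tissue, give the level of the same genes in cells with intact Ercc1, though genotype and age cannot be told apart there and the control libraries are shared. The genes given were chosen after their values were seen. Mmp13 was at 0.193, 0.0406 and 0.04302 CPM in them, Spp1 at 50.6, 44.2 and 56.4 CPM and Dll4 at 0, 0 and 0.172 CPM. Gpc3 was at 61.6, 61.1 and 57.2 CPM, Sfrp2 at 271, 275 and 293 CPM and Islr at 265, 255 and 265 CPM. Others lay on the other side of the D/KO controls from the cells with A83-01. Aspn was at 828, 879 and 760.2 CPM in wild-type cells, 222 CPM in D/KO control and 17.7 CPM with A83-01. Postn was at 6829, 7464 and 6029.8 CPM in wild-type cells, 2967 CPM in D/KO control and 575 CPM with A83-01. Nog was at 5.38, 3.57 and 5.72 CPM in wild-type cells, 14.1 CPM in D/KO control and 43.7 CPM with A83-01. Rab3b, at 0.155, 0.203 and 0.645 CPM in wild-type cells and 2.81 CPM in D/KO control, rose to 74.02 CPM with A83-01 and so away from the wild-type level, and Pamr1, at 53.4, 51.7 and 53.1 CPM in wild-type cells, rose to 742 CPM.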
